A study of Mus musculus with 20 samples.

Results

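The genes described here encode the parts of the perineuronal net, and they were taken from a fixed list of 10: the lecticans Acan, Bcan, Ncan and Vcan, the link proteins Hapln1, Hapln2 and Hapln4, the tenascins Tnr and Tnc, and the receptor phosphatase Ptprz1. All 10 were among the 19463 genes of the deposited table, and all 10 had a mean value of at least 10, the level needed to be tested, as did 17637 genes over the whole table. RNA was sequenced from the whole brains of male C57BL/6J mice at 3 weeks (P21) and 10 weeks (P70). At each age 5 Katnal2-KO mice, homozygous for a frame-shifting deletion of exon 3 of Katnal2, were compared with 5 WT mice, which gave 4 groups and 20 mice. The deletion was made in the germ line from a EUCOMM targeted allele, with Flp supplied by Protamine-Flp mice and Cre supplied as the cell-permeable protein HTNC in early embryos, so it is present in every cell, and mixed-genotype littermates were housed together after weaning. The study asked which transcripts differ between the genotypes at each age, and the same 20 mice also show how net genes change between weaning and adulthood.

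Perineuronal nets are lattices of extracellular matrix that settle around the cell bodies and proximal dendrites of certain neurons, above all fast-spiking parvalbumin interneurons, as circuits mature. Hyaluronan chains form the backbone, lecticans (chondroitin sulfate proteoglycans) bind the chains at one end, link proteins of the Hapln family clamp that contact, and tenascin-R crosslinks the lecticans at the other end. Part of the same proteins also makes the looser matrix around synapses, at nodes of Ranvier and in the developing brain, and they are made by neurons, astrocytes and cells of the oligodendrocyte lineage.

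The values are counts normalized by the authors, called normalized counts below, and they sum to between 27310523 and 28423042 per mouse. Depth, estimated from the spacing of the lowest values, was about 25800000 to 36200000 reads at P21 and 23000000 to 27100000 at P70. Katnal2 itself was still counted in the KO mice, at 89.0 ± 8.72 normalized counts (SD, n = 5) against 107 ± 7.38 (SD, n = 5) in WT mice at P21 and at 105 ± 11.8 (SD, n = 5) against 122 ± 16.4 (SD, n = 5) at P70. All 5 KO mice lay below all 5 WT mice at P21 (96.0 was the highest KO value and 99.3 the lowest WT value) and the genotypes overlapped at P70, but a gene total is no check of the loss of 1 exon. The KO and WT mice numbered 5 at P70 stood apart from the rest: their log2 values correlated with those of the other mice of that age at 0.9688 to 0.9759 on average, against 0.9818 to 0.9827 for the other P70 mice, and the age results of the 10 genes are given below with and without them.

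Along the genome, each lectican gene had a link protein gene as its neighbour, with no gene of the table between them (GRCm38, GENCODE M21 annotation). Bcan (chromosome 3, 87987531 to 88000230, minus strand) lay 21.5 kb from Hapln2 (88021750 to 88027583, minus strand). Ncan (chromosome 8, 70093085 to 70120873, minus strand) lay 2.2 kb from Hapln4 (70083457 to 70090862, plus strand). Vcan (chromosome 13, 89655312 to 89742509, minus strand) lay 43.7 kb from Hapln1 (89539796 to 89611652, plus strand). Acan (chromosome 7, 79053483 to 79115099, plus strand) lies beside Hapln3, a link protein found mostly outside the brain, 2 bases away, which was at 36.4 ± 4.23 normalized counts (SD, n = 5) in P21 WT mice. The other net genes were Tnr (chromosome 1, 159523769 to 159931729, plus strand), Tnc (chromosome 4, 63959785 to 64047015, minus strand) and Ptprz1 (chromosome 6, 22875502 to 23052916, plus strand). With age, both genes of the Vcan and Hapln1 pair fell, while Hapln4 rose and its neighbour Ncan was not called, with the values given below.

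Promoters were read from the RefSeq promoter table (GRCm38.p6), which held 9 of the 10 genes. The 200 bases upstream of the RefSeq start are shown for 2 lecticans that differ in the results, Vcan, which fell with age, and Bcan, which had the highest level per length of the 10 genes. Vcan's stretch is chr13:89742513-89742712 and Bcan's is chr3:88000357-88000556, both on the minus strand and written 5′ to 3′. Capitals mark matches on either strand to a GC box (GGGCGG) or a CCAAT box (CCAAT).
Vcan: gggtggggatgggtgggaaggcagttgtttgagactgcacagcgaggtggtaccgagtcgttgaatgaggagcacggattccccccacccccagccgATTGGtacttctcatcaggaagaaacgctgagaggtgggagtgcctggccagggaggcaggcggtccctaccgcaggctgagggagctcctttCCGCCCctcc
Bcan: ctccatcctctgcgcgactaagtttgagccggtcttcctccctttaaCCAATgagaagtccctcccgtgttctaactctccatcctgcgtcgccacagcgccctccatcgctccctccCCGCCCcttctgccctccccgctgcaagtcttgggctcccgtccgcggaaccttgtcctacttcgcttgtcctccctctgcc
Both stretches held 1 match to each of these motifs and no match to a TATA box (TATAAA) or an AP-1 element (TGANTCA), with no match of 1 motif overlapping a match of another. Over the same 200 bases of 32851 promoters, 31% held the GC box, 29.3% the CCAAT box, 9.96% the TATA box and 5.48% the AP-1 element. The GC content was 63.0% for Vcan and 62.0% for Bcan, where the promoters as a whole had a median of 53.0% and an upper quartile of 62.5%. The matches describe sequence only, and the 2 stretches were alike in them. Over the 9 genes with a promoter, the GC box was found in 6, the CCAAT box in 4, the TATA box in 2 and the AP-1 element in 0.

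Levels were compared between genes as normalized counts per kilobase of the principal GENCODE transcript. In P21 WT mice Bcan, the short brain lectican brevican, was the highest at 2297 ± 70.6 per kb (SD, n = 5). Below it Ptprz1 (893 ± 68.5), the phosphatase that carries chondroitin sulfate and holds tenascin-R at the cell surface, Hapln4 (767 ± 103), Ncan (696 ± 70.4), Tnr (677 ± 129.6), Hapln2 (579 ± 124) and Vcan (538 ± 65.2) formed a run in which the range of each gene overlapped that of its neighbour in the order. Hapln1 (133 ± 16.2), Tnc (34.8 ± 4.79) and Acan (20.7 ± 3.49) followed, each separated from the next. Aggrecan, the lectican most closely tied to nets, thus had the lowest level of the 10 in these P21 brains. At P70 Acan and Tnc overlapped, at 24.9 ± 2.85 and 25.7 ± 7.55 per kb (SD, n = 5) in WT mice. In P70 KO mice they were at 26.7 ± 7.49 and 26.7 ± 6.01 (SD, n = 5). Vcan's place is uncertain, because its principal transcript is a short form of 2321 bases and its annotated coding forms run from 2273 to 12427 bases. Taken per kilobase of the longest form, Vcan was at 100.4 in P21 WT mice.

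With age, 3 of the 10 genes changed in WT mice: Hapln4 rose, and Vcan and Hapln1 fell. In KO mice the same 3 genes changed in the same directions and Tnr also fell. The threshold was an adjusted p under 0.05 by limma on log2(value + 1) over all genes tested, so a fold change is on that scale. Thus 1 of 10 was called higher and 2 of 10 lower in WT, where 5.53% of all genes were called higher and 5.62% lower, and 1 and 3 of 10 in KO, where 5.47% and 6.4% were. Without both replicate 5 mice the counts were 1 higher and 2 lower in WT, beside 11.2% and 9.97% of all genes, and 1 higher and 4 lower in KO, beside 10.9% and 11.1%. P21 and P70 mice did not overlap at all for 1 higher and 2 lower genes in each genotype, against 5.19% higher and 5.6% lower of all genes in WT and 5.39% and 5.51% in KO. The median log2 fold change of the 10 genes was -0.10 in WT and -0.14 in KO, beside 0.00 and -0.01 over all genes. These are whole-brain totals, in which fewer cells of a type and less RNA per cell cannot be told apart.

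**Figure D1:**
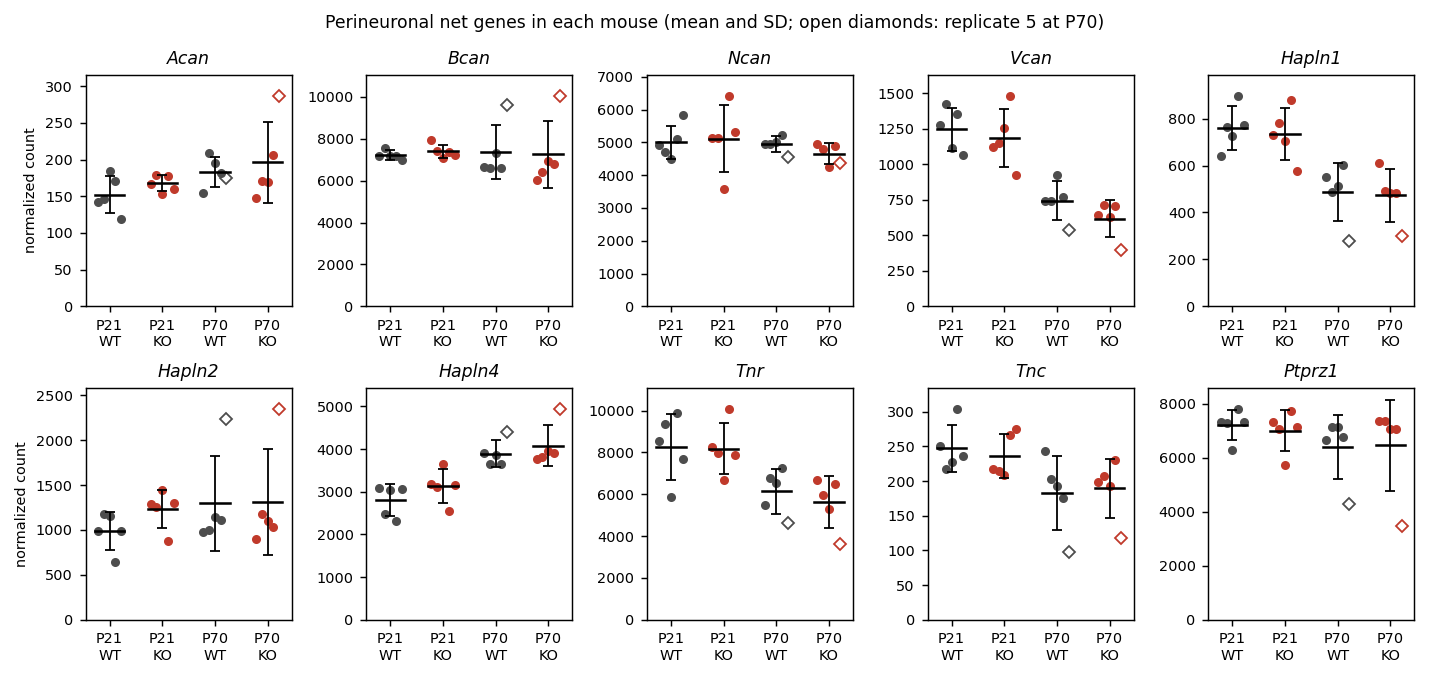
Normalized counts of the 10 genes in each mouse, by age and genotype, with the group mean as a bar and its SD as whiskers (n = 5); filled points are single mice and open diamonds are the replicate 5 mice at P70. Vcan sits between 924 and 1484 at P21 and between 399 and 928 at P70, and the open diamonds lie at the edge of their group for most genes.

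Among the lecticans, Vcan changed most. Versican is the lectican of the embryonic and early postnatal brain matrix and, in its V2 form, of nodes of Ranvier. In WT mice its normalized counts were 1277, 1422, 1117, 1356 and 1069.5 at P21 and 739, 741, 928, 770.1 and 541 at P70. In KO mice they were 1125, 1153, 1253, 1484 and 924 at P21 and 641, 714, 626, 709.8 and 399 at P70. The ages did not overlap within either genotype, and the lowest P21 KO mouse (924) was close to the highest P70 WT mouse (928). The log2 fold change was -0.76 (95% interval -1.08 to -0.43) in WT, adjusted p = 0.00269, and -0.95 (-1.28 to -0.63) in KO, adjusted p = 0.0003, so Vcan fell by 40.9% in WT and fell by 48.4% in KO. Both calls held in all 32 alternative analyses of each contrast, and without both replicate 5 mice the values were -0.65 and -0.80.

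The other lecticans did not pass the test. Bcan was between 6966 and 7575 in P21 WT mice and between 7067 and 7916 in P21 KO mice. At P70 it was 6655, 6587, 7335, 6614 and 9586 in WT and 6025, 6413, 6952, 6800.0 and 10054 in KO, so replicate 5 was above every other mouse of either age in each genotype and the other 8 mice at P70 were between 6025 and 7335. The log2 fold change was 0.01 (-0.22 to 0.24) in WT and -0.05 (-0.29 to 0.18) in KO. Without both replicate 5 mice it was -0.09 (adjusted p = 0.21) in WT and -0.18 (-0.28 to -0.08) in KO, where Bcan then fell with an adjusted p of 0.0102, against 0.0102 to 0.981 over the 32 alternatives.

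Ncan, neurocan, a lectican of growing axons that declines early in postnatal life in rodents, was at 5008 ± 506 normalized counts (SD, n = 5) in P21 WT mice and 4942 ± 246 (SD, n = 5) in P70 WT mice. The KO means were 5118 ± 1017 (SD, n = 5) and 4654 ± 326 (SD, n = 5), with P21 KO mice spread from 3571 to 6426. Its log2 fold changes with age were -0.01 (-0.24 to 0.21) and -0.12 (-0.34 to 0.11), and 0.014 and -0.092 without both replicate 5 mice, none of them called.

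Acan, aggrecan, was 142, 147, 184, 171 and 119 in P21 WT mice and 154, 209, 196, 182 and 175 in P70 WT mice. In KO mice it was 167, 179, 154, 178 and 161 at P21 and 147, 171, 169, 207 and 287 at P70. The ages overlapped in both genotypes, and 287 was the replicate 5 mouse. The log2 fold changes were 0.27 (-0.04 to 0.58), adjusted p = 0.272, and 0.19 (-0.12 to 0.50), adjusted p = 0.477. With both replicate 5 mice left out they were 0.29 (0.02 to 0.55) in WT and 0.041 (-0.22 to 0.30) in KO, neither called, so the KO value rested on the mouse at 287.

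Among the link proteins, Hapln4 rose and Hapln1 fell. Hapln4, also called Bral2, is a brain link protein of nets in the brainstem and cerebellum and of inhibitory synapses there. In WT mice its normalized counts were 3089.7, 2482, 3051, 2306 and 3067 at P21 and 3898, 3642, 3856, 3648 and 4407 at P70. In KO mice they were 3174, 3110.3, 3656, 2541 and 3151 at P21 and 3768, 3824, 3948, 3916 and 4941 at P70. Every P70 mouse was above every P21 mouse of its genotype, with the closest pair in KO mice at 3656 and 3768. The log2 fold change was 0.48 (0.27 to 0.69), adjusted p = 0.00309, in WT and 0.39 (0.18 to 0.60), adjusted p = 0.0154, in KO, or rises of 39.7% and 30.7%. The values were 0.44 and 0.31 without both replicate 5 mice, both called. The WT call held in all 32 alternatives. The KO call held in 31 and was lost without P21 KO replicate 4, the lowest mouse of its group (adjusted p = 0.0548, range over the alternatives 0.00109 to 0.0548).

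Hapln1, the link protein that stabilizes lecticans on hyaluronan around cortical and other net-bearing neurons, was 640.5, 764, 728, 898 and 772 in P21 WT mice and 549, 485, 513, 603 and 278 in P70 WT mice. In KO mice it was 731, 782, 703, 877 and 577 at P21 and 609, 490.4, 483, 481 and 299 at P70. The ages were apart in WT mice, with 640.5 the lowest P21 value and 603 the highest P70 value, and overlapped in KO mice by the P21 mouse at 577. Its log2 fold change was -0.68 (-1.07 to -0.30), adjusted p = 0.0189, in WT and -0.66 (-1.04 to -0.27), adjusted p = 0.0238, in KO. The WT call was lost without P21 WT replicate 4 (adjusted p = 0.0589, range over 32 alternatives 0.000307 to 0.0589), and the KO call without P21 KO replicate 2 (0.0547) or replicate 4 (0.0692, range 0.000436 to 0.0692). Without both replicate 5 mice the falls were smaller, at -0.50 in each genotype, and were called at adjusted p = 0.00314 in WT and 0.00256 in KO.

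The ratio of Hapln4 to Hapln1 within each mouse restates the rise of the first and the fall of the second and is given as a description. Hapln4 had between 2.57 and 4.82 normalized counts per count of Hapln1 in P21 WT mice and between 2.90 and 5.46 in P21 KO mice. At P70 the ratio ran from 6.05 to 15.9 in WT and from 6.18 to 16.5 in KO, or up to 7.51 and 8.18 without replicate 5. In the same way Bcan per count of Vcan ran from 4.97 to 7.84 over the P21 mice of both genotypes and from 7.91 to 25.2 over the P70 mice, or up to 11.1 without replicate 5.

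Hapln2, also called Bral1, is the link protein of nodes of Ranvier and is made by oligodendrocytes. In WT mice it was 984, 1177, 1155, 647 and 989 at P21 and 979, 1005, 1147, 1112 and 2235 at P70. In KO mice it was 1290.1, 1252, 1442, 881 and 1296 at P21 and 895, 1172, 1101, 1034 and 2349 at P70. Replicate 5 was 2.11 times the geometric mean of the other WT mice and 2.25 times that of the other KO mice at P70, and those other 8 mice were all between 895 and 1172. The log2 fold change with age was 0.34 (-0.16 to 0.85) in WT and 0.02 (-0.49 to 0.52) in KO, and 0.13 and -0.22 without both replicate 5 mice, none of them called.

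The tenascins were lower at P70 in their means, and the fall of Tnr was called in KO mice. Tnr, tenascin-R, crosslinks lecticans in nets and is made by oligodendrocytes and some neurons. In WT mice it was 8542, 9366, 5860.2, 9872 and 7671 at P21 and 5478, 6767, 6536, 7275 and 4647 at P70. In KO mice it was 8246, 7959, 6700.0, 10085 and 7886 at P21 and 6687, 5983, 5314, 6511 and 3629.7 at P70. The ages overlapped in WT mice through the P21 mouse at 5860.2 and were barely apart in KO mice, at 6700.0 and 6687. The log2 fold change was -0.42 (-0.77 to -0.08), adjusted p = 0.107, in WT and -0.56 (-0.90 to -0.22), adjusted p = 0.0297, in KO. The KO call was lost on leaving out P21 KO replicates 1, 2 or 4 or P70 KO replicates 3 or 5 (adjusted p = 0.0588, 0.0532, 0.0926, 0.0604 and 0.0586), and over the 32 alternatives the adjusted p ran from 3.93e-06 to 0.0926. The WT fall was called without P21 WT replicate 3 (0.0387) or P70 KO replicate 5 (0.0363), with a range of 2.46e-05 to 0.252. When both replicate 5 mice were left out the change was -0.33 in WT (adjusted p = 0.0792) and -0.41 in KO (adjusted p = 0.0275). The difference between the WT and KO changes was not called (log2 -0.14, interval -0.62 to 0.35), so the calls do not separate the genotypes.

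Tnc, tenascin-C, a protein of developing and injured brain and of germinal zones, was 251, 218, 227, 304 and 237 in P21 WT mice and 244, 203, 193, 175 and 97.8 in P70 WT mice. In KO mice it was 217, 215, 209, 267 and 275 at P21 and 199, 208, 192, 230.1 and 117 at P70. The ages overlapped in both genotypes and replicate 5 was the lowest P70 mouse in each. Its log2 fold changes were -0.49 (-0.90 to -0.08), adjusted p = 0.123, and -0.34 (-0.76 to 0.07), adjusted p = 0.296. They were smaller without both replicate 5 mice, at -0.28 (-0.52 to -0.04) in WT and -0.18 (-0.42 to 0.06) in KO, and neither was called. Ptprz1, whose secreted form phosphacan binds tenascins, was 7201 ± 553 normalized counts (SD, n = 5) in P21 WT and 6995 ± 750.3 (SD, n = 5) in P21 KO mice. At P70 the 8 mice other than replicate 5 were between 6645 and 7368, while replicate 5 was at 4299 in WT and 3466 in KO. The log2 fold changes of Ptprz1 with age were -0.19 (-0.55 to 0.17) and -0.16 (-0.52 to 0.20) with all mice and -0.05 and 0.05 without those mice.

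**Figure D2:**
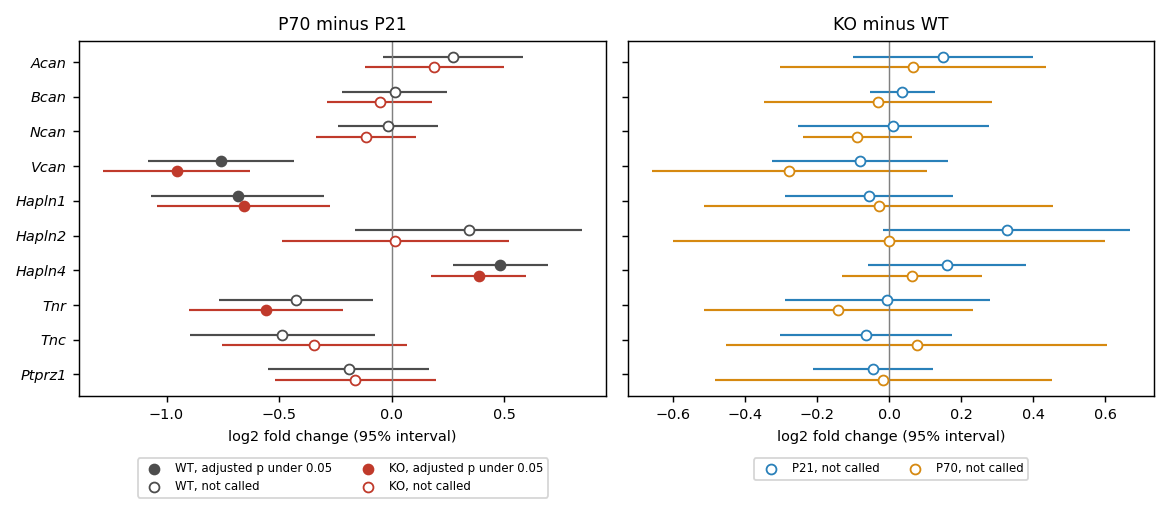
Log2 fold changes of the 10 genes with 95% intervals, on the left between ages in each genotype and on the right between genotypes at each age; filled points have an adjusted p under 0.05 by limma over all genes tested. On the left Vcan, Hapln1 and Hapln4 are filled in both genotypes and Tnr in KO; on the right no point is filled and every interval crosses 0.

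For 8 of the 10 genes the replicate 5 mice of both genotypes lay outside the other mice of their group, on the same side. Relative to the other 4 mice of their group, Bcan, Hapln2 and Hapln4 were above all of them and Vcan, Hapln1, Tnr, Tnc and Ptprz1 were below all of them, in WT and in KO mice alike. Acan was above the others in KO only and Ncan below the others in WT only. The share of all genes that meet this rule was not counted, so the 8 of 10 cannot be set beside it. Over all genes, the deviations of the replicate 5 mice from their group mean had an SD of 0.438 in WT and 0.531 in KO. The SD in the other P70 mice was 0.302 to 0.329. The genes above the others in both genotypes had principal transcripts with a higher GC content (Hapln4 56.96%, Hapln2 59.5%, Bcan 60.74%) than Acan (54.75%) and Ncan (55.07%), and those below the others in both had a lower one (Tnc 52.85%, Vcan 49.2%, Tnr 47.67%, Ptprz1 44.52%, Hapln1 39.81%). Over all genes, the deviation of these mice from their group mean correlated with transcript GC content at 0.495 in WT and 0.534 in KO. The other P70 mice were at -0.283 to -0.095 and the P21 mice at -0.153 to 0.155. With log2 transcript length the deviation of the replicate 5 mice correlated at -0.30 in both genotypes. For length the other P70 mice were at 0.02 to 0.184 and the P21 mice at -0.256 to 0.164. These correlations are across genes, which are not independent replicates. The part of GC content in the values of the net genes was not tested beyond the correction below.

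**Figure D3:**
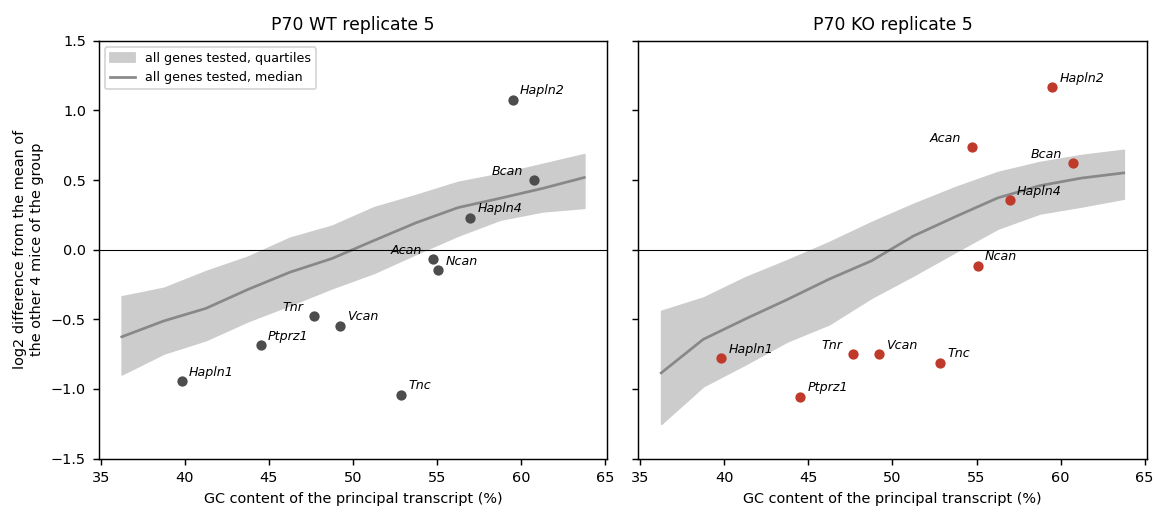
Log2 difference of each P70 replicate 5 mouse from the mean of the other 4 mice of its group, against the GC content of the principal transcript in percent, for WT (left) and KO (right); points are the 10 genes, the grey line is the median and the band the quartiles of all genes tested, in bins of 2.5 percentage points. Hapln2 (1.08 and 1.17) is above the band in both mice, and Tnc, Vcan, Tnr, Ptprz1 and Ncan are below it in both.

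When a smooth trend of transcript length and GC content was subtracted from each mouse, an alternative chosen after the data were seen, Vcan, Hapln1 and Hapln4 were called as before in both genotypes and Tnr was called lower in both (adjusted p = 0.000945 in WT). With that correction and without both replicate 5 mice, Tnc (-0.32, adjusted p = 0.0455, range over 32 alternatives 0.038 to 0.297) and Ptprz1 (-0.12, adjusted p = 0.045, range 0.045 to 0.877) were also called lower in WT mice. Across all genes the number called with age in WT rose from 1966 to 3350 with the correction and to 3731 without both replicate 5 mice.

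**Figure D4:**
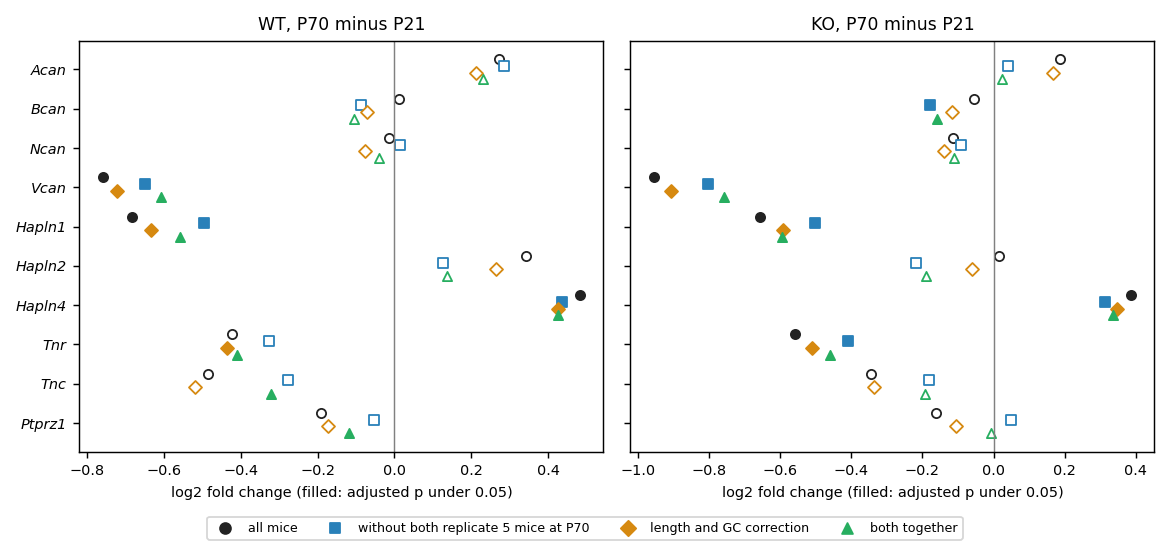
Log2 fold change between ages of the 10 genes in WT (left) and KO (right) under 4 analyses: all mice, without both replicate 5 mice at P70, with the length and GC correction, and both together; filled symbols have an adjusted p under 0.05. Vcan, Hapln1 and Hapln4 are filled under all 4 in both genotypes. Bcan and Ncan in WT and Hapln2 and Ptprz1 in KO lie on different sides of 0 under different analyses.

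Between genotypes, 0 of the 10 genes were called at either age by limma, where 0.0% of all genes were called at P21 and 0.0% at P70, and 0 of the 10 had an unadjusted p under 0.05 (429 of 17610 genes at P21 and 199 of 17613 at P70). With DESeq2, a test on counts, the paper reported small sets of genes that differed between genotypes at each age. The 0 calls here are those of limma on log2 normalized values and do not show that no gene differs. KO and WT mice overlapped for all 10 genes at both ages, while 0.46% of all genes did not overlap at P21 and 0.193% at P70. At P21 the log2 difference, KO minus WT, ran from -0.08 for Vcan to 0.33 for Hapln2. The narrowest interval was that of Bcan, from -0.05 to 0.13. The widest was that of Hapln2, from -0.02 to 0.67. Hapln2 was at 1232 ± 209 normalized counts (SD, n = 5) in KO and 991 ± 212 (SD, n = 5) in WT mice, with 4 of 5 KO mice above the highest WT mouse.

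At P70 the log2 difference between genotypes ran from -0.28 for Vcan to 0.08 for Tnc. The narrowest interval was that of Ncan (-0.24 to 0.06) and the widest that of Hapln2 (-0.60 to 0.60), with the replicate 5 mice in both groups. Vcan was at 618 ± 129 (SD, n = 5) in KO and 744 ± 138 (SD, n = 5) in WT mice (interval -0.66 to 0.11). Without both replicate 5 mice the 4 KO mice (626 to 714) lay below the 4 WT mice (739 to 928). The share of non-overlapping genes given above is for 5 against 5 mice, a stricter rule, and none was counted for 4 against 4. The log2 difference was then -0.24 (-0.42 to -0.05) and was not called. In limma its unadjusted p was 0.0165 and its adjusted p 0.999, and 651 of 17650 genes had an unadjusted p under 0.05 there. Over the 22 alternatives the difference of Vcan stayed between -0.39 and -0.13, none called.

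Whether age acted differently in KO mice was tested by the interaction of age and genotype over the 20 mice. By limma 0 of the 10 genes were called, where 0.0% of all genes were, and 0 of the 10 had an unadjusted p under 0.05 (296 of 17637 genes did). The largest interactions were those of Hapln2, -0.33 (-1.04 to 0.39), and Vcan, -0.20 (-0.66 to 0.26).

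The genes that build, bind or cut the net matrix were followed as 5 lists, and 21 of their 82 tested genes were called with age in WT mice. Over all genes 5.53% were called higher and 5.62% lower in WT, and 5.47% and 6.4% in KO. These shares stand beside the counts of each list below. In the hyaluronan list, 0 of 11 genes rose and 4 fell in WT, and 0 rose and 3 fell in KO. Has2, a hyaluronan synthase, fell from 16.03 ± 4.18 to 4.06 ± 3.40 normalized counts (SD, n = 5) in WT (log2 -1.99, adjusted p = 0.0109) and had -0.99 (adjusted p = 0.223) in KO. Hmmr, the hyaluronan-mediated motility receptor, fell from 35.7 ± 4.81 to 20.4 ± 6.29 (SD, n = 5), log2 -0.81, adjusted p = 0.0102. Both are low enough that each value rests on few reads.

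In the list for chondroitin sulfate synthesis, 3 of 21 genes rose and 1 fell in WT, and 2 rose and 1 fell in KO. Chpf, part of the polymerase that extends the chain, rose from 2141 ± 166 to 2806 ± 392 (SD, n = 5), log2 0.38, adjusted p = 0.0243. Chst15, the sulfotransferase that makes the E unit, rose from 1006 ± 92.4 to 1273 ± 107 (SD, n = 5), log2 0.34, adjusted p = 0.00316. Chst3, a 6-O-sulfotransferase that makes the C unit typical of the young matrix, fell from 263.7 ± 27.1 to 118 ± 22.3 (SD, n = 5), log2 -1.17, adjusted p = 1.88e-05. In KO mice Chst3 fell by 1.16 on the log2 scale, from 259.8 ± 21.8 to 117.5 ± 23.4 (SD, n = 5).

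Among the proteases and their inhibitors, 1 of 20 genes rose and 5 fell in each genotype. Mmp2, a gelatinase, fell from 127.9 ± 17.2 to 68.5 ± 5.47 (SD, n = 5) in WT (log2 -0.88, adjusted p = 0.000255). Adamts4, a lectican-cleaving aggrecanase, fell from 1704 ± 256 to 942 ± 83.5 (SD, n = 5), log2 -0.85, adjusted p = 1.44e-05. Timp3, an inhibitor of these proteases, rose from 2949 ± 293 to 3639 ± 237 (SD, n = 5), log2 0.31, adjusted p = 0.0119, and was at 0.08 (adjusted p = 0.583) in KO, where the 1 gene that rose was another.

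Among receptors and proteins bound by nets, 3 of 17 genes rose and 1 fell in WT, and 3 rose and 2 fell in KO. Nptx1, a neuronal pentraxin of excitatory synapses, rose from 8997 ± 637 to 12640 ± 904 (SD, n = 5), log2 0.49, adjusted p = 1.69e-05. Rtn4rl2, a Nogo receptor relative, rose from 420.2 ± 23.3 to 565 ± 56.3 (SD, n = 5), log2 0.42, adjusted p = 0.0012. Nfasc, neurofascin of nodes and initial segments, fell from 17870 ± 3100 to 11800 ± 1290 (SD, n = 5), log2 -0.59, adjusted p = 0.000709. Among other matrix genes, 0 of 13 rose and 3 fell in each genotype, with Sparc, a matricellular protein (log2 -0.60, adjusted p = 0.00217), and Thbs1, thrombospondin 1 (-0.59, adjusted p = 0.026), falling most in WT. The median log2 fold changes of the 5 lists in WT were -0.002, 0.096, -0.115, 0.112 and -0.062 in the order given, beside 0.001 over all genes. Without both replicate 5 mice 10 genes of the 5 lists rose and 16 fell in WT, against 7 and 14 with them. In KO 13 rose and 17 fell, against 6 and 14. Over all genes 11.2% were then called higher and 9.97% lower in WT, and 10.9% and 11.1% in KO. The rises in the synthesis list were then 4 in WT and 6 in KO, and the falls among other matrix genes 5 and 4. Has2 was then at -1.73 (adjusted p = 0.0111) and Chst3 at -1.055 (5.16e-07) in WT. By limma 0 of the genes of these lists were called between genotypes at either age, with an unadjusted p under 0.05 for 0 of 82 at P21 and 1 of 81 at P70.

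**Figure D5:**
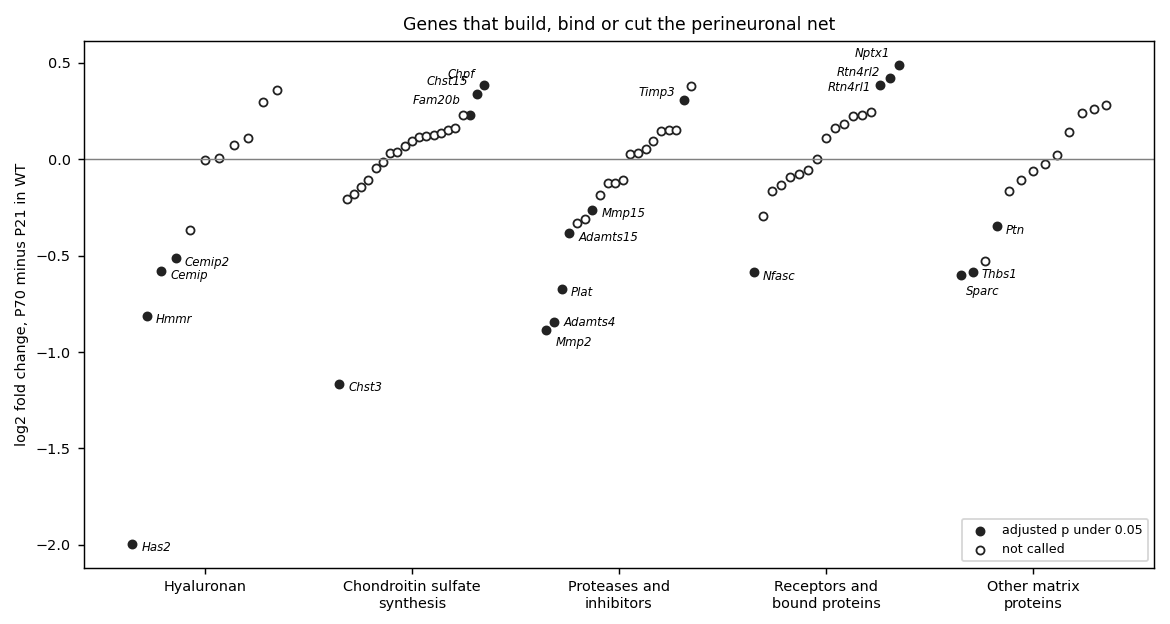
Log2 fold change between P21 and P70 in WT mice for each tested gene of the 5 related lists, ordered within each list; filled points have an adjusted p under 0.05 and are named. Chst3 (-1.17) and Has2 (-1.99) are the lowest points of their lists and Nptx1 (0.49) the highest called point.

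Of the cell marker lists in this paragraph, those of oligodendrocytes, their precursors, and immature neurons and progenitors had the most genes called with age. The lists of parvalbumin interneurons and astrocytes had few. The marker counts here and in the next paragraph stand beside 5.53% of all genes called higher and 5.62% lower in WT. The KO shares were 5.47% and 6.4%. Without both replicate 5 mice the shares were 11.2% and 9.97% in WT and 10.9% and 11.1% in KO. The summed level of 10 oligodendrocyte markers was 400405 to 450574 in P21 WT and 400126 to 587032 in P21 KO mice, and 171624 to 195519 in P70 WT and 154979 to 203876 in P70 KO mice. Of these, 8 of 10 fell in WT and 9 of 10 in KO. Oligodendrocyte precursor markers summed to 17057 to 19528 in P21 WT and 10171 to 11920.4 in P70 WT mice, with 9 of 10 lower in WT and 8 in KO. In the list of immature neurons and progenitors 4 of 10 fell in each genotype. Its sums overlapped, at 27151 to 32418 in P21 WT and 24162 to 28189.7 in P70 WT mice. Tubb3 and Stmn1 had the highest means of that list, at 11590 and 9957 in P21 WT mice, so they weigh most in the sum. Neither was called with all mice. Without both replicate 5 mice 5 of the list fell and 1 rose in WT. The list for parvalbumin interneurons, the cells that bear most nets, summed to 39001 to 41586 in P21 WT and 42765 to 44946 in P70 WT mice. Of its markers 1 of 10 was higher in WT (Kcnc1, log2 0.23, adjusted p = 0.00411 in limma). Gad1 and Kcnc1 had the highest means of the list, at 9303 and 8563 in P21 WT mice, so they weigh most in the sum. In KO mice the sums overlapped, at 40952 to 42423 and 42348 to 44893, with 1 of 10 higher. It was Gad1 (log2 0.18, adjusted p = 0.0299 in limma), and Kcnc1 was at 0.11 (adjusted p = 0.195). Of the 10 parvalbumin list markers 3 were higher in WT, and 2 higher and 1 lower in KO, without both replicate 5 mice. In WT mice Pvalb itself was 2432 ± 243 and 2665 ± 517 normalized counts (SD, n = 5). It was not called in WT (log2 0.12, adjusted p = 0.641 in limma) or in KO (0.03, adjusted p = 0.923). Astrocyte markers had 1 of 10 higher in each genotype and 1 lower in KO, and the sums in WT overlapped between the ages (104643 to 119318 and 114762 to 127437). No list had a marker at 0 in all mice. The part of these changes in cell markers in the falls of Vcan, Hapln1 and Tnr was not tested.

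Other markers were read for the make-up of the tissue. Neuronal markers had 1 of 10 higher and 2 lower in each genotype. Meningeal fibroblast and endothelium and pericyte markers each had 3 of 10 lower, microglia had 0 of 10 called by limma (unadjusted p under 0.05 for 1 in WT and 0 in KO), choroid plexus had 1 of 10 higher and hindbrain and cerebellum 1 of 9 lower, in each genotype. The median log2 fold change of the hindbrain and cerebellum list was -0.108 in WT and -0.875 in KO, beside 0.001 and -0.01 over all genes. The part of this in the age changes of the net genes was not tested. Blood markers, of which 8 of 10 were in the table, had 5 of 6 lower, and summed to 24518 to 61313 in P21 WT and 6995 to 9970.1 in P70 WT mice. Without both replicate 5 mice the endothelium and pericyte markers lower with age were 7 in WT and 4 in KO. By limma 0 markers of the 12 lists were called between genotypes, with an unadjusted p under 0.05 for 13 of 117 at P21, where 2.44% of all genes had one, and 1 of 114 at P70, where 1.13% had. Of those 13, 5 were among 7 blood markers (median log2 difference of the list, KO minus WT, -0.741). Another 3 were among 10 hindbrain and cerebellum markers (0.723) and 2 among 10 choroid plexus markers (0.236). The oligodendrocyte list (0.105), the parvalbumin interneuron list (0.013) and the list of immature neurons and progenitors (-0.069) held 1 each. The median over all genes was 0.004. The part of these marker differences in the P21 differences between genotypes, such as that of Hapln2, which oligodendrocytes make, was not tested.

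The genes whose values followed each net gene most closely from mouse to mouse were found by correlating log2 values, each centred on its group mean, over the 20 mice. For Tnr they were Nrcam (r = 0.970), Prrc2c (0.968) and Ankrd52 (0.968), and over the 18 mice other than replicate 5 at P70 these were at 0.945, 0.957 and 0.955. Nrcam, a neuronal adhesion molecule, was also in the list of bound proteins. For Ptprz1 they were Med13, Ncam2 and Lcor, at 0.992, 0.991 and 0.990 over 20 mice and 0.937, 0.932 and 0.954 over 18. For Hapln4 they were Cd82, Gm2415 and P3h4, at 0.925, 0.901 and 0.888 and then 0.952, 0.866 and 0.881. For Ncan they were Gm15513, Amigo1 and Gm10033, at 0.842, 0.826 and 0.825 and then 0.894, 0.857 and 0.827. For these 4 net genes the values stayed at 0.827 or more without the replicate 5 mice.

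For the remaining genes the values dropped when those mice were left out. For Bcan they were Col18a1, Lpcat4 and Lonp1, at 0.963, 0.953 and 0.953 over 20 mice and 0.804, 0.524 and 0.574 over 18. For Hapln1 they were Eif5, Mfsd8 and Map2k4, at 0.932, 0.920 and 0.919 and then 0.757, 0.68 and 0.70, and for Vcan Reep3, Kmt5b and Usp6nl, at 0.928, 0.911 and 0.895 and then 0.818, 0.793 and 0.732. For Hapln2 they were Gpd1, Mpnd and Neu1 (0.949, 0.942 and 0.935), for Tnc 2510009E07Rik, Inpp4b and Ppp6c (0.934, 0.932 and 0.927) and for Acan Mybpc3, Dync1h1 and Pinx1 (0.823, 0.820 and 0.812), with r from 0.643 to 0.843 over 18 mice. The points share library, depth and base composition, and no p is given.

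Among the net genes themselves, the highest correlation over 20 mice was that of Tnr and Ptprz1, at r = 0.844, with 0.781 over 18. Hapln4 ran against both, at -0.852 with Tnr and -0.729 with Ptprz1 over 20 mice and -0.776 and -0.708 over 18. So did Hapln2, at -0.799 with Tnr and -0.884 with Ptprz1 over 20 mice and -0.581 and -0.597 over 18. The lowest correlation of all pairs over 20 mice was that of Hapln2 and Tnc, at -0.9, with -0.68 over 18. Ncan and Ptprz1 were at 0.477 and 0.807. Some pairs had other values without the replicate 5 mice. Bcan and Ptprz1 were at -0.856 over 20 mice and 0.198 over 18, and Tnc and Hapln1 were at 0.741 and -0.006. In the P21 mice of each genotype, replicate 3 had the lowest Tnr of its group and replicate 4 the highest Tnr and the lowest Hapln4. These mice also differed in the trend of their values with transcript length and GC content. The deviations of replicate 3 correlated with log2 length at -0.256 in WT and -0.196 in KO, and with GC content at 0.155 and 0.132. Those of replicate 4 were at 0.13 and 0.164 with length and at -0.138 and -0.153 with GC content. The part of these trends in the opposition of Tnr and Hapln4 was not tested.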

How the data were processed

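Whole-brain poly-A RNA of 20 mice was sequenced on an Illumina instrument in paired-end mode. Per the submitters' processing notes, transcripts were quantified with Salmon 1.1.0 on GRCm38 and normalized with DESeq2 1.26.0 in R 3.6.2. The deposited signal values are counts that the authors normalized with a factor for each gene and mouse, so whole reads could not be recovered and no count test was run. Here log2(value + 1) was fitted with limma 3.58.1 (R 4.3.3; eBayes with an intensity trend) for genes whose mean value reached 10, with Benjamini-Hochberg adjustment of the p-values across every gene tested (threshold 0.05). Age and interaction contrasts used all 20 mice and genotype contrasts the 10 mice of that age. Groups came from the labels, each mouse is 1 sample, and precision is limited by n = 5 and by the estimated depth. Fold changes on the log2(value + 1) scale understate those of low genes. Scripts were tested on simulated data.

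Symbols (19447 of 19463 genes), lengths and GC content came from GENCODE M21 and promoters from RefSeq. The 10 genes, the related and marker lists and the tests were chosen with earlier results of these data known. Named besides the 10 genes were up to 2 genes per direction in each related list with the largest change in WT among those called, the 3 genes likest to each net gene, Katnal2 and marker genes. Of 22 genes listed for chondroitin sulfate synthesis, 21 were in the table and the other was not analysed here. Alternatives were no intensity trend, quantile normalization, equal sums, no filter, a mean of at least 100, log2(value + 10), other samples in the fit, the replicate number as a block, each mouse left out, and both replicate 5 mice at P70 left out. The length and GC correction, alone or with the block or that omission, was added after the data were seen. Figures were drawn with matplotlib 3.10.9 in Python 3.11.15 (numpy 2.4.6, pandas 2.3.3).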

Additional observations from a re-analysis of the deposited data

Results flagged for a closer look

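For each net gene and group of 5 mice, the highest and lowest mouse was tested for standing apart (gap to the nearest mouse over the range of the group, critical value 0.71). This marked 8 of 40 groups, and chance marks about 1 in 20. In every one it was replicate 5 at P70. Bcan was high at 9586 normalized counts in WT (ratio 0.75) and 10054 in KO (0.77). Hapln2 was high at 2235 in WT (0.866) and 2349 in KO (0.809), and Hapln4 at 4941 in KO (0.846). Vcan was low at 399 in KO (0.72), and Ptprz1 at 4299 in WT (0.822) and 3466 in KO (0.919). The groups share these 2 mice, so the 8 values are not independent.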

How the results depend on the processing

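Vcan was called lower with age in both genotypes and Hapln4 higher in WT under all 32 alternatives, and no net gene was called between genotypes or in the interaction under any. All genes called with age numbered 1966 in WT and 2094 in KO, and these rose to 3350 and 3508 once transcript length and GC were corrected for, 3424 and 3585 when the replicate block was added to that, 3731 and 3879 without both replicate 5 mice at P70, and 3865 and 4172 with that omission and the correction. The correction and the alternatives that hold it were chosen after the data were seen. Net genes called lower in WT went from 2 to 4 with correction and block and to 5 with correction and omission. The range on leaving out 1 mouse was 1 to 3 there (1 without P21 WT replicate 4), and in KO 1 to 3 lower (1 without P21 KO replicate 2 or 4) and 0 to 1 higher (0 without P21 KO replicate 4). Genes called between genotypes went from 0 to 1 at P70 without both replicate 5 mice, alone or with the correction, and ranged from 0 to 1 at P21 on leaving out 1 mouse. The cause was not tested.

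Same-numbered mice are different animals. The correlation of their deviations ran from -0.009 to 0.26 at P21 and from 0.075 to 0.705 at P70, and 3 of 5 KO mice at P21 and 4 of 5 at P70 correlated best with their own number. For age contrasts the block joined P21 and P70 mice of the same number, which no label links, and the correlations above are within 1 age. For the other contrasts it joined mice of 1 age only. With the replicate block 1148 genes rose and 1142 fell with age in WT, and Tnr was called there (adjusted p = 0.0239 in limma, range over alternatives 2.46e-05 to 0.252). Between genotypes no net gene was called with the block, and the unadjusted p was under 0.05 for Hapln2 (0.33, interval 0.20 to 0.45, unadjusted p = 0.000214 and adjusted p = 0.752 in limma) and Hapln4 (0.16, 0.05 to 0.27) at P21, for Vcan at P70 (-0.28, -0.46 to -0.09, unadjusted p = 0.00771 and adjusted p = 1.0 in limma) and for Hapln2 in the interaction (-0.33, -0.51 to -0.14). Over the alternatives the adjusted p ran from 0.752 to 1.0 for Hapln2 at P21 and from 0.928 to 1.0 for Vcan at P70. With the block 732 of 17610 genes at P21 and 610 of 17613 at P70 had an unadjusted p under 0.05, against 429 and 199 without it. For the interaction 710 of 17637 genes had one with the block, against 296 without it. Hapln2 there had an unadjusted p of 0.00213 and an adjusted p of 0.9998 in limma.

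Some differences that were not called changed sign, and values are log2 differences. With age in WT, Bcan went from 0.013 to -0.023 (quantile normalization), -0.072 (correction, with or without the block), -0.087 (omission) and -0.10 (both), and Ncan to 0.014 (omission). In KO, Hapln2 went to -0.061 (correction, with or without the block), -0.22 (omission) and -0.19 (both), and Ptprz1 to 0.050 (omission). Between genotypes, Ncan at P21 went to -0.0072 (correction). At P70, Acan went to -0.094 (omission) and -0.077 (both), Hapln1 to 0.015 (correction), Hapln2 to -0.020 (correction), -0.018 (omission) and -0.025 (both), and Ptprz1 to 0.029, 0.059 and 0.072 in the same order. The interaction of Hapln1 went to -0.0067 (omission) and -0.035 (both). Leaving out 1 mouse gave ranges that cross 0 as follows. With age they were Bcan -0.087 to 0.049 and Ncan -0.052 to 0.041 in WT and Bcan -0.18 to 0.0065, Hapln2 -0.22 to 0.13 and Ptprz1 -0.23 to 0.050 in KO. Between genotypes they were Ncan -0.076 to 0.14, Vcan -0.16 to 0.0065, Hapln1 -0.12 to 0.027, Tnr -0.12 to 0.066, Tnc -0.12 to 0.012 and Ptprz1 -0.093 to 0.024 at P21, and Acan -0.081 to 0.16, Bcan -0.15 to 0.069, Hapln1 -0.22 to 0.13, Hapln2 -0.23 to 0.22, Hapln4 -0.0063 to 0.11, Tnr -0.24 to 0.0088, Tnc -0.13 to 0.24 and Ptprz1 -0.15 to 0.20 at P70. For the interaction they were Acan -0.23 to 0.0095, Bcan -0.19 to 0.033, Hapln1 -0.16 to 0.18, Tnr -0.23 to 0.013, Tnc -0.066 to 0.30 and Ptprz1 -0.11 to 0.24.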
